A study of Homo sapiens with 2 samples.

Results

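The collagen genes were chosen by name from a table of gene counts of HSC-1 cells, as the protein-coding entries named COL, a number, A and a number. This gave 44 of 44591 genes, of which 11 encode fibrillar collagen chains, 6 encode chains of collagen IV and 27 encode other collagens. No count entered the choice of single genes, but the gene family was picked on earlier results of the same libraries, so the values below are a description.

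HSC-1 is an established human line of cutaneous squamous cell carcinoma. Cells at a confluency of 70% received either a control siRNA (siNC) or an siRNA that targets LINP1 (siLINP1), a long noncoding RNA of the non-homologous end joining pathway. Both groups were kept in serum-free medium for 6 h and then for 24 h in medium with 10% serum, and total RNA was sequenced from 1 library per condition. These are the conditions in the sample labels, and the methods of the study describe transfections at another confluency and with another time of collection. The comparison asks what the depletion of LINP1 changes in the transcriptome. With 1 library of 1 cell line in each group, no test was possible, and the siRNA and any other difference between the 2 cultures cannot be told apart.

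Collagens are secreted matrix proteins whose chains wind into a helix of several chains, and a given type is built from a fixed set of chains. Fibrillar collagens form the fibres of connective tissue, collagen IV forms the sheet of the basement membrane under epithelia and vessels, and the remaining types coat fibrils, form filaments or networks, anchor the basement membrane or span the cell membrane. Epidermal keratinocytes are known for collagens VII and XVII, which tie them to the dermis, while collagens I and III are mainly products of fibroblasts.

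The siNC library held 18829544 counted reads and the siLINP1 library 15383081. LINP1 itself (chr10:6779344-6780901, plus strand, GRCh37) had 167 reads in siNC and 23 in siLINP1, a log2 fold change of -2.65 with an interval of -3.35 to -2.02. Here and below, a log2 fold change is that of siLINP1 over siNC after scaling by size factors that make the median gene equal, and the interval is the exact 95% binomial interval (Clopper-Pearson) for how a gene's reads split between the libraries, which covers counting error only. The squamous label was checked against 12 keratinocyte markers, of which 6 were under 1 RPKM (reads per kilobase of gene length per 1e6 counted reads) in both libraries, among them TP63 with 6 and 8 reads. Of 14 mesenchymal or fibroblast markers, 5 were under 1 RPKM in both, and their summed level was 2081 RPKM in siNC and 1706 RPKM in siLINP1, led by VIM. Endothelial markers (6 genes) summed to 3.94 and 3.96 RPKM, and 3 of 6 blood cell markers had no read in either library.

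The collagen genes with most reads were COL4A2, COL9A3, COL4A1, COL5A2 and COL6A2, and these 5 held 68.9% of all collagen reads in siNC and 71.1% in siLINP1. A count of 1 or more was found in siNC for 40 collagen genes and in siLINP1 for 42. Between the libraries, 5 genes stood out with higher counts in siLINP1 (COL6A3, COL19A1, COL17A1, COL5A3 and COL4A1), and COL1A1 stood out with a lower count. The other well-read chains lay within 1.5-fold of siNC, except COL22A1. The collagens thus differed in both directions, and chains of the same collagen type differed by unequal amounts.

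The start regions of the 5 genes with the higher counts are shown as a description, and other parts of these genes were not compared. COL4A1 and COL4A2 lie head to head on chromosome 13 with 109 bases between their annotated starts. The stretch between them is given on the plus strand (GRCh37, chr13:110959505-110959613), so that COL4A2 is read to the right and COL4A1 to the left. The other stretches are the 250 bases before a RefSeq transcript start on GRCh38.p14, on the strand of the gene: COL6A3 at chr2:237414165-237414414 (minus), COL19A1 at chr6:69866306-69866555 (plus), COL17A1 at chr10:104085881-104086130 (minus) and COL5A3 at chr19:10010505-10010754 (minus). Capitals mark 4 motifs searched on both strands, namely the TATA box TATAAA, the CCAAT box CCAAT, the GC box GGGCGG and the CTC box CCCTCCC, the last of which is known from collagen IV promoters. No marked motif overlaps another.
COL4A1 and COL4A2 intergenic: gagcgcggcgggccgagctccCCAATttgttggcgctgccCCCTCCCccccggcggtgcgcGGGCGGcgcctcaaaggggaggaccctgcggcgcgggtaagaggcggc
COL6A3: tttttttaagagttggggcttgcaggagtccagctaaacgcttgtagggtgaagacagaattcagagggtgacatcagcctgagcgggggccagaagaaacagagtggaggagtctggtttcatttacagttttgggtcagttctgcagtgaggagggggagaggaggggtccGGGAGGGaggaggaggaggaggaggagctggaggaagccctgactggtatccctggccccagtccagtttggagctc
COL19A1: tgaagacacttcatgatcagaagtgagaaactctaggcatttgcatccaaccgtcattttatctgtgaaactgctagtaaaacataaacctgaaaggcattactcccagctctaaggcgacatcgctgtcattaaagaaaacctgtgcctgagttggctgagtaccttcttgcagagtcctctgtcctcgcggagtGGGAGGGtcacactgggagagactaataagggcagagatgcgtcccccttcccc
COL17A1: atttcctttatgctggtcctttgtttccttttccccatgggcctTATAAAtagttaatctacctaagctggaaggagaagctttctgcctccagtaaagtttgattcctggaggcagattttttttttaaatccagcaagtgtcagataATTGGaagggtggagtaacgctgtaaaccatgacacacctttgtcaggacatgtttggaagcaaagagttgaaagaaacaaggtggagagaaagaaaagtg
COL5A3: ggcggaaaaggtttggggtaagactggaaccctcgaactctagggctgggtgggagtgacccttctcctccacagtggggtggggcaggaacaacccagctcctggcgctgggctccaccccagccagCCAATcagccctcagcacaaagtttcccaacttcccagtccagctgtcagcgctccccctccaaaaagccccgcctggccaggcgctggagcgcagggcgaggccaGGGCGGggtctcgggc

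The stretches differed widely in composition, from 40.4% GC at COL17A1 to 78.0% between COL4A1 and COL4A2. None of the 4 motifs was present in all of them. The stretch between COL4A1 and COL4A2 held a CCAAT box, a GC box and a CTC box, COL6A3 and COL19A1 held only a CTC box, COL17A1 held a TATA box and a CCAAT box, and COL5A3 held a CCAAT box and a GC box. These are matches of letters only. The TATAAA of COL17A1 began at base 45 of the 250, far from the transcript start, and its use was not tested. There were 44 such RefSeq windows for 32 of the 44 collagen genes. Collagen windows on chromosome 8, where COL14A1 and COL22A1 lie, were left out. The windows of all genes were not limited in this way. The CTC box was in 21 of these 44 windows (47.7%) and in 24.7% of all 35114 windows of the same length, and the GC box was in 24 (54.5%) against 42.6%. The TATA box was in 8 (18.2%) against 10.7%, and the CCAAT box in 12 (27.3%) against 32.0%. Some genes gave several windows, and some windows overlap, among them those of COL5A1 and those of COL4A1 and COL4A2. A motif can thus be counted more than once. Counted by gene, the CTC box was in 19 of 32. The collagen windows had a median GC content of 64.2% against 58.0% over all windows, and its part in these shares was not tested.

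**Figure D1:**
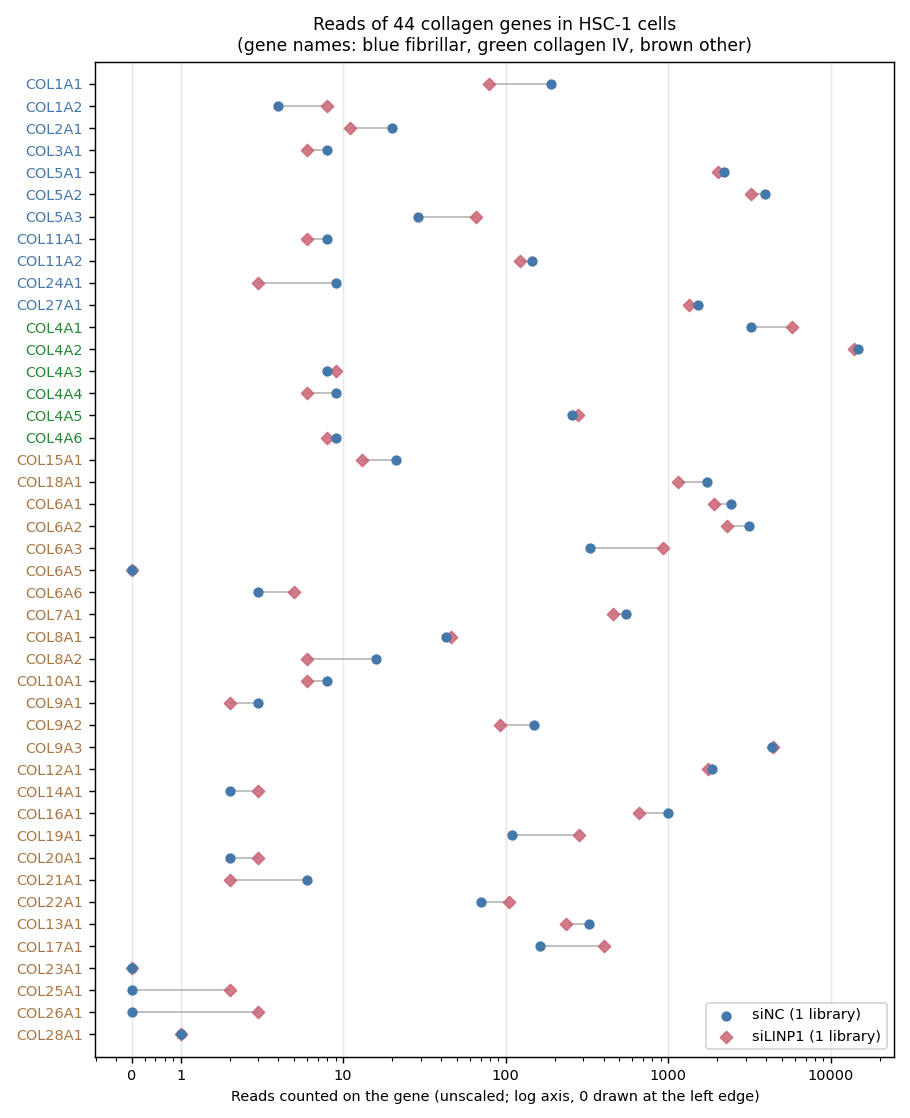
Reads counted for each of the 44 collagen genes (horizontal axis, reads on a log scale, with 0 drawn at the left edge) in the siNC and siLINP1 libraries, 1 point per library, grouped by collagen class. COL4A2 had the most reads in both libraries, COL6A3 and COL17A1 lay clearly to the right in siLINP1 although that library is the smaller one, and 10 genes had fewer than 10 reads in all.

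Of the 44 genes, 34 had at least 10 reads summed over both libraries and 21 had at least 100. The 21 genes held 99.5% of the collagen reads in siNC. The 10 genes under 10 reads were COL6A5, COL6A6, COL9A1, COL14A1, COL20A1, COL21A1, COL23A1, COL25A1, COL26A1 and COL28A1, and together they had 17 reads in siNC and 21 in siLINP1. On the per-length scale, 9 collagen genes were above 10 RPKM in both libraries, 18 were above 1 RPKM in both and 23 were under 1 RPKM in both. COL4A2, COL9A3, COL6A2, COL6A1, COL5A2 and COL4A1 had the highest levels in siNC, in that order, and COL4A1 moved from rank 6 to rank 3 in siLINP1.

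All collagen genes together had 42599 reads in siNC and 41579 in siLINP1. This was 0.226% of all counted reads in siNC and 0.270% in siLINP1, and the log2 fold change of the sum was 0.17 (interval 0.15 to 0.19). The 5 genes with the higher counts had 3858 reads in siNC against 7423 in siLINP1, or 9.06% and 17.9% of the collagen reads. Without them, the remaining 39 genes had 38741 and 34156 reads with a log2 fold change of 0.028 (0.0067 to 0.049). The 5 genes were set apart by their large positive difference, so a smaller value without them follows in part from that choice.

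Of the 34 collagen genes with at least 10 reads, 16 had a positive and 18 a negative log2 fold change. Over all 19840 genes with at least 10 reads, 9487 were positive and 10353 negative. The median of the collagens was -0.041 against -0.023 over all these genes. By more than 1.5-fold, 7 (20.6%) were higher and 4 (11.8%) lower, beside 14.4% and 13.0% of all genes. The whole interval lay beyond 1.5-fold higher for 5 (14.7%) and beyond 1.5-fold lower for 1 (2.94%), where the shares of all genes were 3.98% and 2.06%. Among genes with at least 100 reads, 5 of 21 collagens (23.8%) were higher and 1 (4.76%) lower, beside 8.72% and 6.77% of all genes. The interval lay above 0 for 11 (32.4%) and below 0 for 8 (23.5%), where all genes gave 23.0% and 25.6%. The median of the collagens was thus near that of all genes, while the share of genes with a large positive difference was above that of all genes. The share with a large negative difference was near it, and none of these differences between shares was tested.

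**Figure D2:**
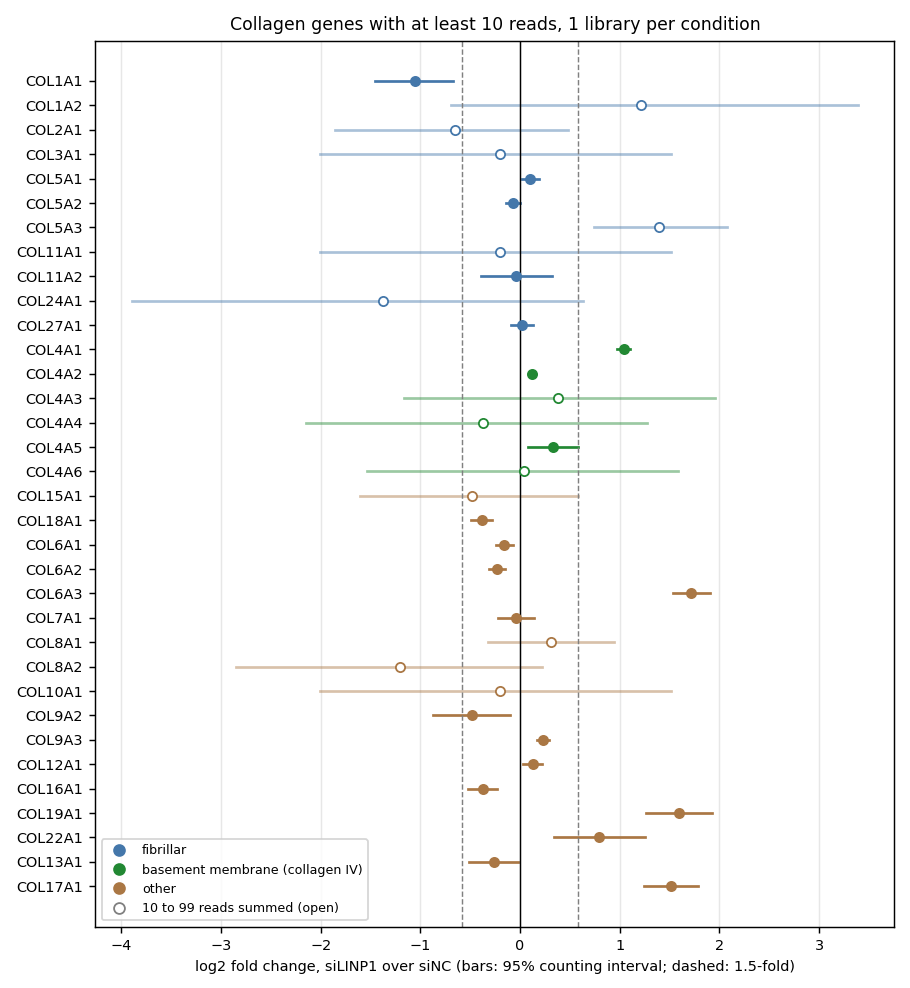
Log2 fold change of siLINP1 over siNC (horizontal axis) for the 34 collagen genes with at least 10 reads, coloured by group, with bars for the 95% counting interval and dashed lines at 1.5-fold. COL4A1, COL5A3, COL6A3, COL17A1 and COL19A1 lie with their whole bar to the right of the upper dashed line and COL1A1 with its whole bar to the left of the lower one, while open points, with 10 to 99 reads, mostly have bars across 0.

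The fibrillar chains, which build the fibres of the connective tissue, were at a similar summed level in both libraries. The 11 genes had 8051 reads in siNC and 6899 in siLINP1, a log2 fold change of the sum of -0.013 (-0.060 to 0.033), and their median was -0.072. Of them, 4 were positive and 7 negative, beside 9487 and 10353 of all 19840 genes. By more than 1.5-fold, 2 were higher and 3 lower (14.4% and 13.0% of all genes). Both higher genes, COL5A3 and COL1A2, had fewer than 100 reads, and the interval of COL1A2 spanned 0. Of the 3 lower genes, COL2A1 and COL24A1 had fewer than 100 reads and intervals across 0. The reads came from collagens V and XXVII rather than from the abundant fibre formers of connective tissue.

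COL5A2, a chain of the collagen V that regulates fibril diameter, had 3918 reads in siNC and 3223 in siLINP1. Its level was 30.0 and 30.2 RPKM, and its log2 fold change was -0.072 (-0.14 to -0.0046), a sign that turned with scaling by total count. COL5A1, its partner chain in collagen V, had 2195 and 2038 reads, 13.7 and 15.6 RPKM, and a log2 fold change of 0.10 (0.015 to 0.19). Both chains thus stayed well within 1.5-fold of siNC. COL27A1, a fibrillar chain of cartilage, had 1524 and 1336 reads with a log2 fold change of 0.020, and COL11A2, a chain of the cartilage collagen XI, had 146 and 123 reads with a log2 fold change of -0.038. The intervals of both spanned 0.

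COL5A3, the third chain of collagen V, was the exception in this family. It had 29 reads in siNC and 66 in siLINP1, with a low level of 0.249 and 0.695 RPKM. The fold was 2.63, with a log2 fold change of 1.40 (0.75 to 2.08). An antisense gene annotated over COL5A3 had 0 and 5 reads, and the strand setting of the counting is not given in the sources used here. Relative to COL5A1, COL5A3 was higher in siLINP1 by 1.29 on the log2 scale (0.64 to 1.98), a difference that does not depend on the scaling of the libraries.

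COL1A1, the major chain of collagen I, had 190 reads in siNC and 79 in siLINP1. It was the only collagen gene whose whole interval lay beyond 1.5-fold lower, at 1.70 and 0.866 RPKM and a log2 fold change of -1.06 (-1.45 to -0.67). Its partner COL1A2 had 4 and 8 reads and COL3A1, the chain of collagen III, had 8 and 6, both named here after their values were seen. Of the 14 mesenchymal or fibroblast markers, 10 had a lower level in RPKM in siLINP1 and 4 a higher one. The share of all genes with a lower RPKM was not computed, so this count is not read as a result about the markers. RPKM is scaled by total count, unlike the log2 fold changes. DCN (29 and 2 reads), LUM (222 and 87) and PDGFRB (369 and 172) were among the lower, ZEB1 (697 and 883) and POSTN (2 and 11) among the higher, and THY1 was at 1 and 0 reads. Both cultures were of the HSC-1 line, and the relation of these markers to the COL1A1 value was not tested. In bulk RNA, fewer cells of a type and less RNA per cell cannot be told apart. The remaining fibrillar chain COL11A1 also had fewer than 100 reads and an interval across 0.

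Collagen IV, the sheet-forming collagen of the basement membrane, was the group with the highest log2 fold change of its sum among the 3 groups. Its 6 genes had 18235 reads in siNC and 19889 in siLINP1, which was 42.8% and 47.8% of the collagen reads, and the log2 fold change of the sum was 0.33 (0.31 to 0.36). Of the 6, 5 were positive and 1 negative, beside 9487 and 10353 of all 19840 genes. By more than 1.5-fold, 1 was higher (14.4% of all genes were), and the median was 0.23. Collagen IV molecules are built from COL4A1 and COL4A2 together, from COL4A3, COL4A4 and COL4A5, or from COL4A5 and COL4A6. COL4A1 carried this difference, and without COL4A2, the best read member, the sum was 3512 and 6042 reads with a log2 fold change of 0.99 (0.93 to 1.05).

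COL4A1 (chr13:110801305-110959504, minus strand, GRCh37) had 3230 reads in siNC and 5740 in siLINP1. Its level was 23.0 and 50.1 RPKM, the fold was 2.05, and the log2 fold change was 1.04 (0.98 to 1.10). COL4A2 (chr13:110959614-111165556, plus strand) had 14723 and 13847 reads, 121 and 139 RPKM, and a log2 fold change of 0.12 (0.087 to 0.15). These genes share the short start region printed above, with 1 GC box and 1 CTC box, and encode the 2 chains of the same molecule. Yet COL4A1 was higher relative to COL4A2 by 0.92 on the log2 scale (0.85 to 0.99), and the ratio of their levels, COL4A2 over COL4A1, went from 5.26 in siNC to 2.78 in siLINP1. In both libraries COL4A2 remained the higher of the pair per length.

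The other collagen IV genes lie in like pairs. COL4A5, the chain of adult basement membranes whose loss underlies Alport syndrome, had 256 and 279 reads, 2.08 and 2.78 RPKM, and a log2 fold change of 0.33 (0.084 to 0.58). Its head-to-head neighbour COL4A6 (346 bases apart on chromosome X) and the pair COL4A3 and COL4A4 (5 bases apart on chromosome 2) had fewer than 20 reads each. Their direction was not detectable at this depth.

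**Figure D3:**
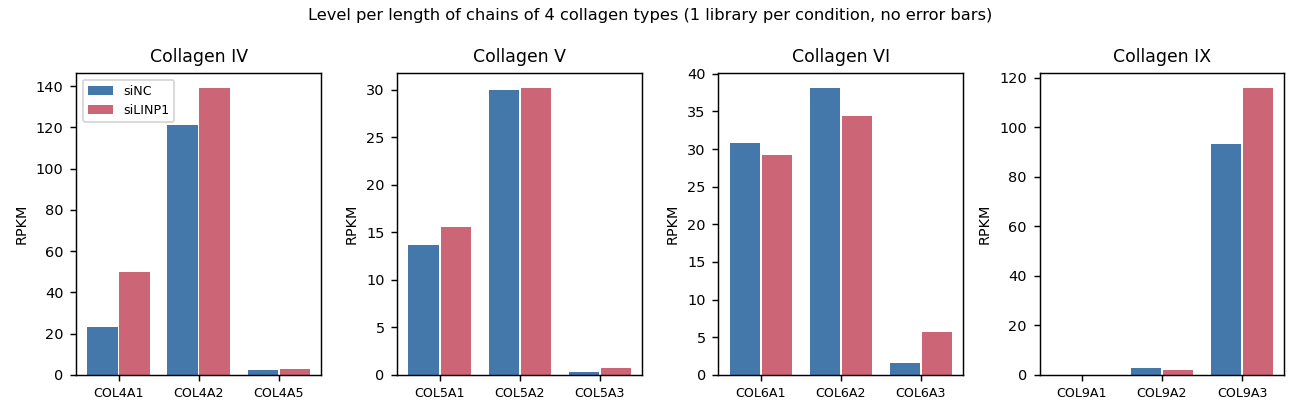
Level per length (vertical axis, RPKM, each panel on its own scale from 0) of the chains of collagens IV, V, VI and IX in siNC and siLINP1, with 1 bar per library and no error bars because there is 1 library each. COL4A1 and COL6A3 are higher in siLINP1 while COL4A2, COL6A1 and COL6A2 are at similar levels in both libraries, and COL9A1 is at the bottom of its panel.

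Collagen VI forms beaded filaments around cells and is assembled from COL6A1, COL6A2 and a larger chain, which is COL6A3 in most tissues. COL6A1 had 2450 reads in siNC and 1899 in siLINP1, with a level of 30.8 and 29.2 RPKM and a log2 fold change of -0.16 (-0.25 to -0.071). COL6A2 had 3121 and 2301 reads, 38.2 and 34.4 RPKM, and a log2 fold change of -0.23 (-0.31 to -0.15). The log2 fold changes of these chains differed by 0.072 (-0.045 to 0.19), which is within counting error, and their signs turned when a trend with GC content was removed.

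COL6A3 (chr2:238232655-238322850, minus strand, GRCh37) went the other way, with 328 reads in siNC and 933 in siLINP1. Its level was 1.63 and 5.67 RPKM, and its fold of 3.29 was the largest among collagens with at least 100 reads, with a log2 fold change of 1.72 (1.53 to 1.90). Relative to COL6A1 it was higher by 1.88 on the log2 scale (1.67 to 2.08). The ratio of COL6A1 to COL6A3 levels was 18.9 in siNC and 5.15 in siLINP1, and that of COL6A2 to COL6A3 was 23.4 and 6.08. COL6A3 was the scarce chain in both libraries, and less so in siLINP1, while the alternatives COL6A5 and COL6A6 were under 10 reads.

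The chains that link the epidermis to its matrix differed from each other. COL17A1 (chr10:105791046-105845638, minus strand, GRCh37), the transmembrane collagen of hemidesmosomes, had 162 reads in siNC and 400 in siLINP1. Its level was 1.53 and 4.64 RPKM, with a fold of 2.85 and a log2 fold change of 1.51 (1.25 to 1.79). COL7A1, the anchoring fibril collagen, had 547 and 459 reads, 3.17 and 3.25 RPKM, and a log2 fold change of -0.044 (-0.23 to 0.14). The 12 keratinocyte markers went in both directions, with 7 at a lower and 5 at a higher level in RPKM in siLINP1, and the matching share of all genes was not computed. ITGB4, the integrin chain of the hemidesmosome, had 5990 and 3962 reads, KRT14, a keratin of basal keratinocytes, had 243 and 87, and KRT6A, a keratin of activated keratinocytes, had 31 and 45. The markers summed to 77.8 RPKM in siNC and 60.0 RPKM in siLINP1, or 26.4 and 18.3 RPKM without ITGB4, and their part in the COL17A1 value was not tested. COL13A1, another transmembrane collagen found at cell contacts, had 326 and 235 reads with a log2 fold change of -0.26 (-0.51 to -0.016), and COL17A1 was higher relative to it by 1.78 on the log2 scale.

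Fibril-associated collagens, which decorate the surface of fibrils or lie in basement membrane zones, made up 10 genes, 6 of them with at least 100 reads. COL9A3, a chain of the cartilage collagen IX, was the collagen with the second highest level, at 93.3 and 116 RPKM. It had 4367 reads in siNC and 4432 in siLINP1, with a log2 fold change of 0.23 (0.17 to 0.29). It overlaps TCFL5 on the opposite strand by 146 bases, and TCFL5 had 809 and 579 reads. Its partner COL9A2 had 149 and 92 reads, 2.80 and 2.11 RPKM, and a log2 fold change of -0.49 (-0.88 to -0.10), and the third chain COL9A1 was under 10 reads. The level of COL9A3 was thus far above that of the chains it is assembled with, 33.4 times that of COL9A2 in siNC and 54.9 times in siLINP1.

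COL19A1 (chr6:70576448-70922157, plus strand, GRCh37), a collagen of basement membrane zones, had 109 reads in siNC and 284 in siLINP1. Its level was 0.663 and 2.12 RPKM, with a fold of 3.01 and a log2 fold change of 1.59 (1.27 to 1.92). COL22A1, a collagen of tissue junctions, had 70 and 105 reads, 0.585 and 1.07 RPKM, and a log2 fold change of 0.79 (0.34 to 1.25), above 1.5-fold but with an interval that reached below it. COL12A1, which binds collagen I fibrils, had 1859 and 1754 reads with a log2 fold change of 0.13 (0.031 to 0.22). COL16A1, a minor component of fibrils and microfibrils, had 995 and 663 reads, with a log2 fold change of -0.38 (-0.52 to -0.23). The members of this class therefore spread over both directions.

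COL18A1, the basement membrane collagen from which endostatin is cleaved, had 1725 reads in siNC and 1142 in siLINP1. Its level was 13.5 and 10.9 RPKM, and its log2 fold change of -0.39 (-0.49 to -0.28) was opposite to that of COL4A1, although both proteins are found in basement membranes. The related COL15A1 and the network collagens COL8A1, COL8A2 and COL10A1 had fewer than 100 reads each and intervals across 0. The 27 genes outside the fibrillar and collagen IV groups together had 16313 and 14791 reads and a median of -0.16 over the 17 with at least 10 reads, with 4 higher and 1 lower by more than 1.5-fold, beside the 14.4% and 13.0% of all genes.

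Over the 21 collagens with at least 100 reads, the exonic GC content ran from 41.0% to 67.4% with a median of 61.3%, and its Spearman correlation with the log2 fold change was -0.60 (n = 21 genes). Over 11975 genes with at least 100 reads the correlation was -0.26, with a median GC content of 48.3%. These are correlations across genes in a single pair of libraries, the points share both libraries, and the genes are not independent replicates. In bins of GC content, the medians of all genes and of the collagens differed to an unequal extent. From 45 to 50% GC they were 0.029 and 0.027 (2 collagens), from 50 to 55% -0.045 and 1.03 (2), and from 55 to 60% -0.12 and 0.92 (4). From 60 to 65% GC they were -0.20 and -0.041 (8 collagens), and from 65% upwards -0.27 and -0.31 (4). COL19A1 was the only collagen from 40 to 45%, and COL5A3, which had under 100 reads, had a GC content of 64.2%. After the trend with GC content was removed, COL4A1 was at 1.13, COL6A3 at 1.78, COL19A1 at 1.52, COL17A1 at 1.62, COL5A3 at 1.62 and COL1A1 at -0.87 on the log2 scale. These values were of similar size with and without the trend, but their intervals were not recomputed. COL1A1 moved toward 0, and an interval moved by as much would no longer lie wholly beyond 1.5-fold lower. With total counts its interval was -1.37 to -0.589, where 1.5-fold is 0.585 on the log2 scale. The placing of COL1A1 beyond 1.5-fold lower with its whole interval thus depended on the processing. Smaller differences depended more on the trend, with COL18A1 at -0.12, COL16A1 at -0.18 and COL9A3 at 0.50. COL4A2 was at 0.31, COL5A1 at 0.27 and COL27A1 at 0.21 without the trend, each higher than with it. COL4A1 and COL4A2 then lay closer together than with the trend, with COL4A1 still the higher.

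**Figure D4:**
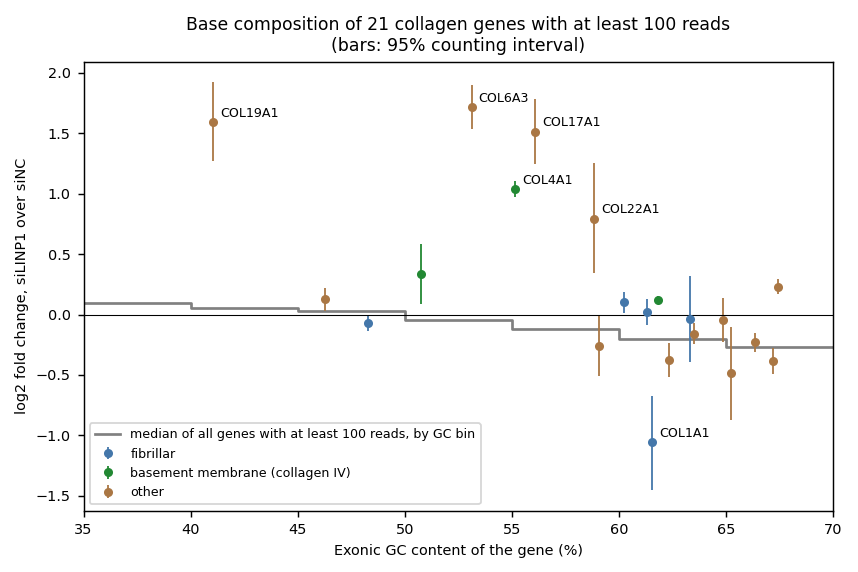
Log2 fold change of siLINP1 over siNC (vertical axis) against exonic GC content in percent (horizontal axis) for the 21 collagen genes with at least 100 reads, with bars for the 95% counting interval and a stepped line for the median of all genes with at least 100 reads in each GC bin. The stepped line declines with GC content, and COL19A1, COL6A3, COL17A1, COL4A1 and COL22A1 lie above it at each GC content while COL1A1 lies below it.

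Collagen chains are hydroxylated and folded in the endoplasmic reticulum, packed into large carriers, trimmed of their propeptides, cross-linked outside the cell and bound by receptors. A list of 70 genes of these steps, of which 64 were found in the table by name, served as the rest of the pathway. Of the 57 with at least 10 reads, 22 were positive and 35 negative, beside 9487 and 10353 of all 19840 genes. The median was -0.10. Beyond 1.5-fold, 5 were higher and 5 lower (8.77% each), where 14.4% and 13.0% of all genes were. These shares depend on read number. Among genes with at least 100 reads, 3 of 51 pathway genes were higher and 2 lower, beside 8.72% and 6.77% of all genes. The whole interval lay beyond 1.5-fold higher for 3 (5.26%) and lower for 2 (3.51%), beside 3.98% and 2.06% of all genes. The interval lay above 0 for 14 (24.6%) and below 0 for 26 (45.6%), beside 23.0% and 25.6%. The share of intervals below 0 was thus the one farthest from that of all genes, and none of these differences between shares was tested. Intervals are narrower with more reads, and 51 of the 57 had at least 100 reads. Over all genes this held for 13336 of 19840.

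Among the 21 read genes of modification and folding, 16 were negative, beside 10353 of all 19840 genes, and the median was -0.21. P4HB, the disulfide isomerase subunit of prolyl 4-hydroxylase and the best read gene of this step, had 9480 reads in siNC and 7253 in siLINP1, with a log2 fold change of -0.18. Of its catalytic partners, P4HA1 had 1330 and 914 reads and a log2 fold change of -0.33 (-0.45 to -0.21), and P4HA2 had 1290 and 669 reads and a log2 fold change of -0.74 (-0.87 to -0.60). P4HA3, by far the least read of them, had 13 and 60 reads and a log2 fold change of 2.42 (1.53 to 3.41). TMEM38B, a channel of the endoplasmic reticulum whose loss causes brittle bones, had 397 and 618 reads and a log2 fold change of 0.85 (0.66 to 1.03).

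In secretion, 7 of the 12 read genes were positive, beside 9487 of all 19840 genes, and the median was 0.021. SEC31A, a coat protein of the export vesicles, had most reads, with 2184 and 1789 and a log2 fold change of -0.078. CREB3L1, a membrane-bound transcription factor of the secretory pathway, had 47 reads in siNC against 5 in siLINP1, with a log2 fold change of -3.02 (-4.71 to -1.70). Propeptide cleavage had a median of -0.052, with most reads for PCOLCE, an enhancer of the cleaving protease, at 2513 and 1949.

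The cross-linking genes had a median of -0.23 over 5 read genes. PXDN, the peroxidase that cross-links collagen IV, had 5942 reads in siNC and 4391 in siLINP1 with a log2 fold change of -0.23, opposite in sign to COL4A1. The receptors had a median of -0.12 over 8 read genes. ITGB1, the integrin chain common to the collagen-binding integrins, had 3943 and 4542 reads with a log2 fold change of 0.41, and ITGA1, its partner in the receptor that prefers collagen IV, had 664 and 1261 reads with a log2 fold change of 1.13 (1.00 to 1.27). The 5 basement membrane partners had a median of -0.057, with most reads for SPARC, a collagen-binding glycoprotein, with 34148 and 21107 reads and a log2 fold change of -0.48.

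**Figure D5:**
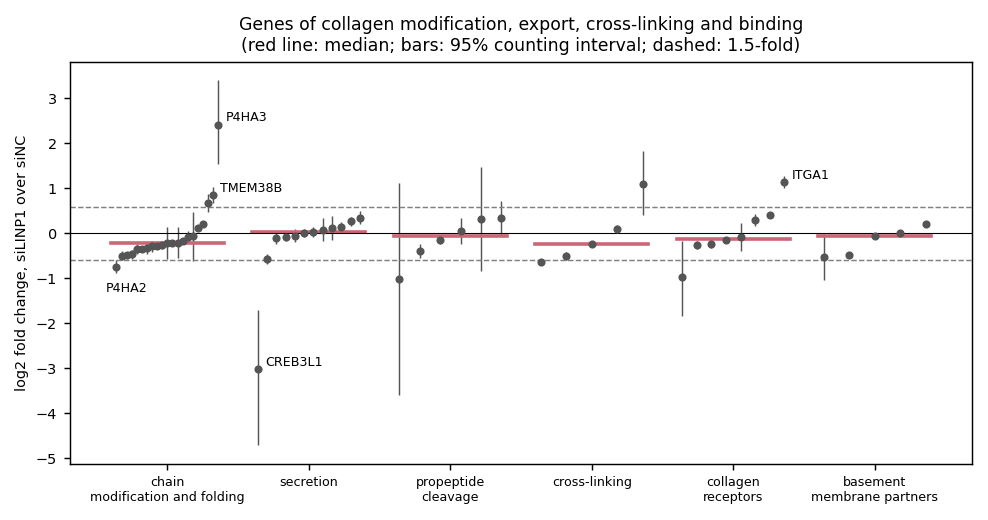
Log2 fold change of siLINP1 over siNC (vertical axis) of the 57 collagen pathway genes with at least 10 reads, ordered within 6 roles, with bars for the 95% counting interval, red lines for the median of a role and dashed lines at 1.5-fold. Most points lie near or slightly below 0, while P4HA3, TMEM38B and ITGA1 lie above the upper dashed line and P4HA2 and CREB3L1 below the lower one with their whole bars.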

How the data were processed

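RNA sequencing of HSC-1 cells was analysed from the gene table that the authors deposited. The authors sequenced on an Illumina HiSeq instrument, aligned to GRCh37/hg19 with Tophat2 and counted reads per gene with HTSeq. The submitters' processing notes also name HISAT2, HISAT and Bowtie2, and versions, annotation and strand setting are not given in the sources used here. The deposited values are raw read counts and RPKM, which the authors obtained from the count, the gene length and the library total. 12 other columns of per-sample values were not used.

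Scaling used size factors by the median of ratios (1.08 for siNC and 0.930 for siLINP1), and genes with fewer than 10 reads in all were left out, which kept 19840 genes. The log2 fold change has no pseudocount. With 1 library per condition no p-value was computed. Every interval covers counting error only.

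The collagen genes, their classes and the pathway and marker lists were chosen with earlier results of these data known. Every collagen with at least 100 reads was named, those with 10 to 99 reads where the interval excluded 0, and pathway genes where the whole interval lay beyond 1.5-fold or where they had most reads of their role. Other genes were named after their values were seen. Gene positions and exonic GC content came from GRCh37, and promoter windows from RefSeq (GRCh38.p14). Alternatives were total-count (CPM) and edgeR TMM scaling, the deposited RPKM, size factors from protein-coding genes, pseudocounts of 1 and 5, a minimum of 1 or 100 reads, sums without the best read member, and removal of a GC trend by lowess (fraction 0.3). The calculations were tested on simulated counts. The tools were edgeR 4.0.16 in R 4.3.3 for the TMM factors, and matplotlib 3.10.9, statsmodels 0.14.6, scipy 1.17.1, pandas 2.3.3 and numpy 2.4.6 in Python 3.11.15.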

Additional observations from a re-analysis of the deposited data

How the results depend on the processing

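With 1 library per condition, the spread between cultures is unknown, and no replicate could be left out. No paired analysis was possible because each condition had 1 library and no result came from a test. Scaling by total count raised every log2 fold change by 0.082, which put the sum of collagen IV at 0.42, that of the fibrillar chains at 0.069 and that of the other collagens at 0.15, and turned 3 of 22 collagens, COL5A2 to 0.0099 and COL7A1 and COL11A2, whose intervals spanned 0, as did the deposited RPKM, which is the same scaling. Without the member with most reads, these sums were 0.99, 0.040 and 0.0038. A minimum of 100 reads left 1 lower collagen, and 3 higher and 2 lower pathway genes, since fewer genes are then counted. Removing the GC trend, an alternative chosen after seeing the data, turned 4 of 22 collagens, COL6A1 to 0.055, COL6A2 to 0.021, and COL7A1 to 0.19 and COL11A2 to 0.17, whose intervals spanned 0 before. The cause was not tested. The median of the collagens was -0.041, and 0.041 with total counts, -0.017 with TMM and 0.11 without the GC trend. That of the pathway genes was -0.10, and -0.021 with total counts, -0.079 with TMM and -0.056 without the GC trend. Counts under 100 limit COL1A2, COL3A1, COL5A3, COL11A1 and 3 of the 6 collagen IV genes.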

Other observations

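Some collagen genes share their locus with other annotated genes. Of the 44, 17 overlapped at least 1 other gene of the annotation, and the share over all genes was not computed. Among the overlapping genes, 13 were antisense or long noncoding genes on the opposite strand, with 83 reads in siNC and 50 in siLINP1 in all and at most 26 and 12 reads for a single gene. COL10A1 lies within the span of NT5DC1, which had 282 and 225 reads. COL19A1 and COL9A1 lie 3585 bases apart on chromosome 6, and of this pair only COL19A1 reached 100 reads. COL3A1 and COL5A2 lie 19168 bases apart on chromosome 2, with 8 and 6 reads for COL3A1 against 3918 and 3223 for COL5A2. COL6A1 and COL6A2 lie 93069 bases apart on chromosome 21 and had similar levels.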
